A study of Mus musculus with 90 samples.

Results

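The Cyp3a genes of the mouse encode the enzymes of cytochrome P450 subfamily 3A. *Cyp3a11*, *Cyp3a13*, *Cyp3a16*, *Cyp3a25*, *Cyp3a41a*, *Cyp3a44* and *Cyp3a59* were taken by their symbols from 4 tables of estimated counts, and they make up 7 of the 27654 genes in these tables. The tables hold 2 other genes with a Cyp3a symbol, *Cyp3a41b* and *Cyp3a57*, which are given only where they bear on the 7 members. Cytochromes P450 of this subfamily sit in the membrane of the endoplasmic reticulum and oxidize steroids, bile acids and a wide range of drugs, with electrons delivered by the reductase *Por*. Their transcription in hepatocytes depends on the nuclear receptors PXR (*Nr1i2*) and CAR (*Nr1i3*), which bind DNA together with RXR, and on factors such as HNF4A (*Hnf4a*), while glucocorticoids are known inducers of members of the subfamily. *Cyp3a11* is the best studied drug-metabolizing member in mouse liver, *Cyp3a13* is also known from the intestine, and *Cyp3a41a* and *Cyp3a44* are known as transcripts of female liver.

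Liver RNA was sequenced in 90 libraries from male C57BL/6J mice on chow, which were at least 12 weeks old when the feeding or injection protocols began. Control mice had food only in the dark phase during their last week, called night-restricted feeding, and calorie-restricted mice received a ration that was lowered stepwise over several weeks. Zeitgeber time (ZT) counts hours from lights on, so that ZT12 is the onset of darkness and of feeding. The time series compared WT mice, homozygous for a floxed allele of the glucocorticoid receptor (GR) gene *Nr3c1* (GRfl/fl), with GR LKO mice. The latter also carry a Cre transgene under the albumin promoter (GRfl/fl x Alb-Cre), which deletes the floxed sequence in hepatocytes. On caloric restriction the time series held 3 livers per genotype at each of ZT0, ZT4, ZT8, ZT12, ZT16 and ZT20, 36 in all. On control diet there were 22 WT livers, 3 each at ZT0 and ZT4 and 4 each at the later time points, and 20 GR LKO livers, 4 each at ZT8 and ZT12 and 3 each at the other time points. A separate diet experiment at ZT12 compared 3 calorie-restricted with 3 control-fed livers of mice labelled WT, for which no floxed allele is named. The titles of those control libraries carry the letters AL, although their treatment label is night-restricted feeding. In the corticosterone experiment at ZT12, 3 WT mice on night-restricted feeding that received corticosterone were compared with 3 WT mice labelled with night-restricted feeding alone. According to the methods of the study, the hormone was injected intraperitoneally once a day for a week and the controls received vehicle. Nothing in the labels says that every library came from a different animal, and p-values therefore measure only the spread between these libraries.

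Libraries held 14235473 to 20788575 (median 17386700) counts in the calorie-restricted time series, 10057544 to 17089004 (median 13427104) in the control-diet time series, 36442195 to 39492146 (median 37407547) in the diet experiment and 13739631 to 16077943 (median 14431388) in the corticosterone experiment. Levels are given as CPM, counts scaled to library size with TMM factors, and each of the 4 tables was scaled on its own. Tests were made within a table, except for the interactions of genotype with diet and for a comparison of the diets in WT livers of the time series at ZT12, and other levels from different tables are set side by side without a test. In the time series each diet fills a table, so that diet and library batch cannot be told apart there. A gene was called where edgeR's quasi-likelihood test gave a Benjamini-Hochberg (BH) adjusted p below 0.05 over all genes tested in that comparison. RNA came from whole liver, in which fewer cells of a type and less RNA per cell cannot be told apart.

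The deleted gene was examined first. On caloric restriction at ZT12, *Nr3c1* stood at 102, 98.5 and 104 CPM in the WT livers and at 30.96, 31.9 and 30.6 CPM in the GR LKO livers. On control diet at ZT12 the WT livers held 83.7, 89.0, 76.1 and 88.9 CPM of *Nr3c1* and GR LKO livers only 18.8, 20.8, 20.3 and 25.1 CPM. Every GR LKO library lay below every WT library of its table, also over all time points, where *Nr3c1* ranged from 21.6 to 31.9 CPM in GR LKO against 70.5 to 113 CPM in WT on caloric restriction and from 16.2 to 29.0 against 73.0 to 118 CPM on control diet. *Nr3c1* fell in GR LKO livers over all time points, with log2 fold changes of -1.84 (SE 0.0366, edgeR BH-adjusted p = 4.86e-28) on caloric restriction and -1.97 (SE 0.0459, edgeR BH-adjusted p = 9.47e-30) on control diet. In the diet experiment *Nr3c1* was at 88.7, 90.3 and 95.7 CPM on control diet and 84.3, 88.4 and 86.6 CPM on caloric restriction. It was at 74.1, 77.4 and 69.4 CPM in the control livers of the corticosterone experiment and 61.7, 83.8 and 65.9 CPM after corticosterone. These WT groups overlapped in the corticosterone experiment, and in the diet experiment the log2 fold change of *Nr3c1* was -0.08 (edgeR BH-adjusted p = 0.317).

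A library of the time series stood apart in the Cyp3a genes and is named here before the results. Replicate 2 of the calorie-restricted WT livers at ZT8 held 462 CPM of *Cyp3a11*, against 3635 and 6140 CPM in the other replicates, and it was the lowest of all 36 calorie-restricted libraries. Its *Cyp3a59* (46.4 CPM against 154 and 158 CPM) and *Cyp3a25* (909.9 CPM against 1554 and 1359.7 CPM) were also the lowest of the group, while its *Cyp3a13* was the highest (299.9 CPM against 204 and 174 CPM). Summed markers of Kupffer and myeloid cells, led by *Clec4f*, reached 313 CPM there with none of the 6 genes at 0, against 145.1 and 194 CPM in the other replicates, and the 5 markers of bile duct cells, led by *Spp1* and with 1 at 0, 90.4 CPM against 45.2 and 43.8 CPM. The 7 hepatocyte markers, led by *Alb* and with none at 0, summed to 118500 CPM, between the 112400 and 136700 CPM of the other replicates. The part of these cell markers in its Cyp3a levels was not tested, and the genotype effects, interactions, rhythms and correlations into which it enters were also computed without it, a choice made after the data were seen. The 5 markers of the exocrine pancreas, led by *Cela1* and with 1 at 0, reached 237 CPM in replicate 3 of the calorie-restricted WT livers at ZT12 and 118 CPM in replicate 2 of the control-fed WT livers at ZT16, against medians of 0.0930 and 0.244 CPM in the tables of those diets. *Cyp3a11* stood at 7374 CPM in the former and 5380.2 CPM in the latter, each inside the range of the other libraries of its group.

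All 7 members lie on chromosome 5, on genome build GRCm38. *Cyp3a13* (ENSMUSG00000029727) stands alone at chr5:137892932-137921619 on the minus strand. The other 6 form a cluster with *Cyp3a57* and *Cyp3a41b*, in the order *Cyp3a57*, *Cyp3a16*, *Cyp3a41b*, *Cyp3a41a*, *Cyp3a44*, *Cyp3a11*, *Cyp3a25* and *Cyp3a59*. Within it *Cyp3a16* (ENSMUSG00000038656) lies at chr5:145436309-145469723, *Cyp3a41a* (ENSMUSG00000075551) at chr5:145694049-145720136 and *Cyp3a44* (ENSMUSG00000054417) at chr5:145773983-145805874, all on the minus strand. *Cyp3a11* (ENSMUSG00000056035) at chr5:145854426-145879964 and *Cyp3a25* (ENSMUSG00000029630) at chr5:145977194-146009618 are also on the minus strand, and *Cyp3a59* (ENSMUSG00000061292) at chr5:146079257-146113287 is on the plus strand. Each member is protein coding, with 13 exons in its annotated transcript.

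**Figure D1:**
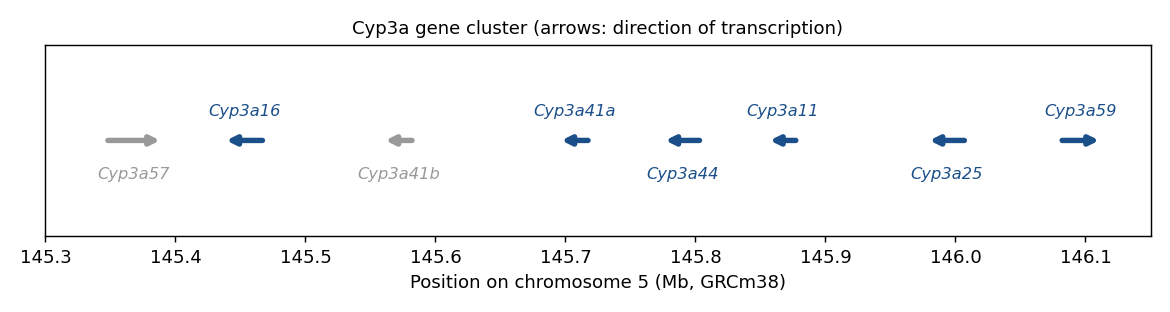
Map of the Cyp3a cluster on mouse chromosome 5, with the position in Mb (GRCm38) on the horizontal axis and an arrow for each gene in its direction of transcription, members in blue and the other Cyp3a genes in gray. *Cyp3a59* and *Cyp3a57* point to the right and the other genes to the left, and *Cyp3a13* lies outside the region drawn.

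Near-identical copies limit how far single members can be counted. Of the 31-base words in the transcript of *Cyp3a13*, 99.7% occur in no other gene, against 72.7% for *Cyp3a16*, 66.2% for *Cyp3a11*, 52.7% for *Cyp3a25*, 51.6% for *Cyp3a44* and 51.1% for *Cyp3a59*. Only 0.148% of the words of *Cyp3a41a* were its own, and *Cyp3a41b* holds 96.1% of them, so that the split of reads between *Cyp3a41a* and *Cyp3a41b* is uncertain in every library. *Cyp3a25* shares 42.1% of its words with *Cyp3a59*, and *Cyp3a44* shares 24.4% with *Cyp3a41a* and 20.4% with *Cyp3a11*. Values of *Cyp3a41a*, *Cyp3a44* and *Cyp3a16* rest on low counts, at most 68.3 in a library, beside a paralog, *Cyp3a11*, with up to 144870 counts, and are uncertain for that reason.

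Among the members, *Cyp3a11* was the most abundant per transcript length in every experiment. In WT livers of the control-diet time series its median was 2264 CPM per kb, ahead of *Cyp3a25* at 367, *Cyp3a13* at 47.9 and *Cyp3a59* at 16.4 CPM per kb. *Cyp3a16*, *Cyp3a44* and *Cyp3a41a* had medians of 0.138, 0.128 and 0.0831 CPM per kb in the same libraries, at the edge of detection. On caloric restriction the WT medians were 2643 CPM per kb for *Cyp3a11*, 524 for *Cyp3a25*, 71.5 for *Cyp3a13* and 50.4 for *Cyp3a59*. In GR LKO livers the medians of *Cyp3a13* and *Cyp3a59* were close on caloric restriction (67.6 and 66.5 CPM per kb) and further apart on control diet (48.1 and 9.91 CPM per kb). The diet experiment had the lowest *Cyp3a11* median, 391 CPM per kb, beside 273 for *Cyp3a25* and 75.3 for *Cyp3a13*. In the corticosterone experiment the median of *Cyp3a11* was 2629 CPM per kb.

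Across single libraries *Cyp3a11* ranged from 1187 to 7941 CPM in control-fed WT livers and from 1666 to 6937 CPM in control-fed GR LKO livers, with medians of 5307 and 3699 CPM. *Cyp3a11* made up 84.2 ± 4.29% (SD, n = 4) of the summed CPM of the 9 Cyp3a genes in control-fed WT livers at ZT12 and 81.4 ± 3.25% (SD, n = 3) in calorie-restricted WT livers at ZT12. That share was lower in the diet experiment, at 49.7 ± 4.91% on control diet and 55.2 ± 4.45% on caloric restriction (SD, n = 3 each). Mean *Cyp3a11* in control-fed WT livers at ZT12 was 615 ± 159 CPM (SD, n = 3) in the diet experiment, 5748 ± 2375 CPM (SD, n = 4) in the time series and 5827 ± 421 CPM (SD, n = 3) in the corticosterone experiment, a difference between tables that was not tested. *Cyp3a25* lay closer across the same 3 groups, at 417 ± 26.0, 799 ± 241 and 582 ± 61.1 CPM, and *Cyp3a13* stood at 180.0 ± 18.7, 157 ± 19.8 and 152 ± 4.71 CPM.

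The diet experiment asked how caloric restriction changed the liver of WT mice at the onset of feeding. *Cyp3a11*, *Cyp3a25*, *Cyp3a13* and *Cyp3a59* rose on caloric restriction, by between 1.55-fold and 2.04-fold. *Cyp3a11* stood at 654, 752 and 440.1 CPM in the control-fed livers and at 1208, 1485 and 1079.9 CPM in the calorie-restricted livers. *Cyp3a25* was measured at 426, 437 and 387 CPM on control diet and at 656, 698 and 770.4 CPM on caloric restriction. For *Cyp3a13*, the control-fed livers held 183, 197 and 159.9 CPM and the calorie-restricted livers 312, 278 and 248 CPM. All calorie-restricted livers were above all control-fed livers in these 3 genes, and control replicate 3 was the lowest library in each. *Cyp3a59*, the lowest of the 4 well-detected members per transcript length, was at 16.1, 14.8 and 8.56 CPM on control diet and 20.7, 25.2 and 27.3 CPM on caloric restriction, again without overlap.

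The log2 fold changes on caloric restriction were 1.03 (SE 0.207, edgeR BH-adjusted p = 0.00633) for *Cyp3a11*, with a 95% interval from 0.55 to 1.52, and 0.76 (SE 0.0899, edgeR BH-adjusted p = 0.000808) for *Cyp3a25*. For *Cyp3a13* the value was 0.63 (SE 0.114, edgeR BH-adjusted p = 0.00397) and for *Cyp3a59* 0.89 (SE 0.229, edgeR BH-adjusted p = 0.0165). The 4 members detected in both groups were called, in a comparison that called 47.1% of its 13062 genes and in which the groups did not overlap for 59% of genes, so that a call is common here. *Cyp3a44* had 0, 5.01 and 1 counts in the control-fed livers and 17.0, 68.3 and 16.2 counts in the calorie-restricted livers. It passed the filter on low counts only through its calorie-restricted group and so had to differ, which keeps it out of the count above, and its log2 fold change of 4.03 (SE 0.954, edgeR BH-adjusted p = 0.0119) rests on 6 control counts in all. *Cyp3a41a*, which was too low to be tested, had 0, 1 and 1 counts on control diet and 4.00, 5.001 and 4.00 on caloric restriction, and *Cyp3a16* had 0 counts in all 6 libraries. Without calorie-restricted replicate 2, *Cyp3a59* had a log2 fold change of 0.87 and an edgeR BH-adjusted p of 0.0501.

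Among WT livers of the time series at ZT12, where diet and batch cannot be told apart, the log2 fold change of *Cyp3a11* between the diets was 0.45 (edgeR BH-adjusted p = 0.321). *Cyp3a13*, *Cyp3a25* and *Cyp3a59* were called there as well, at 1.01 (edgeR BH-adjusted p = 0.000507), 0.76 (edgeR BH-adjusted p = 0.0261) and 1.59 (edgeR BH-adjusted p = 0.023), in a comparison that called 4398 of 11550 genes. *Cyp3a11* there stood at 5594, 7941, 6967 and 2491 CPM in the control-fed livers, overlapping the calorie-restricted livers at 7261, 9223 and 7374 CPM. Hepatocyte markers moved with the diet in the diet experiment. All 7 hepatocyte markers were in the table with none at 0, and their sum, led by *Alb*, was 91480, 90330 and 94810 CPM on control diet and 157300, 159400 and 164900 CPM on caloric restriction. *Alb* itself had a log2 fold change of 0.99 (edgeR BH-adjusted p = 0.000154). The 5 intestinal epithelium markers, led by *Fabp2*, summed to 117, 119 and 103 CPM on control diet and to 39.2, 47.9 and 30.6 CPM on caloric restriction, with 2 or 3 of the 5 at 0 in each library. Whether either marker sum reflects a share of cells, and its part in the Cyp3a differences, was not tested.

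**Figure D2:**
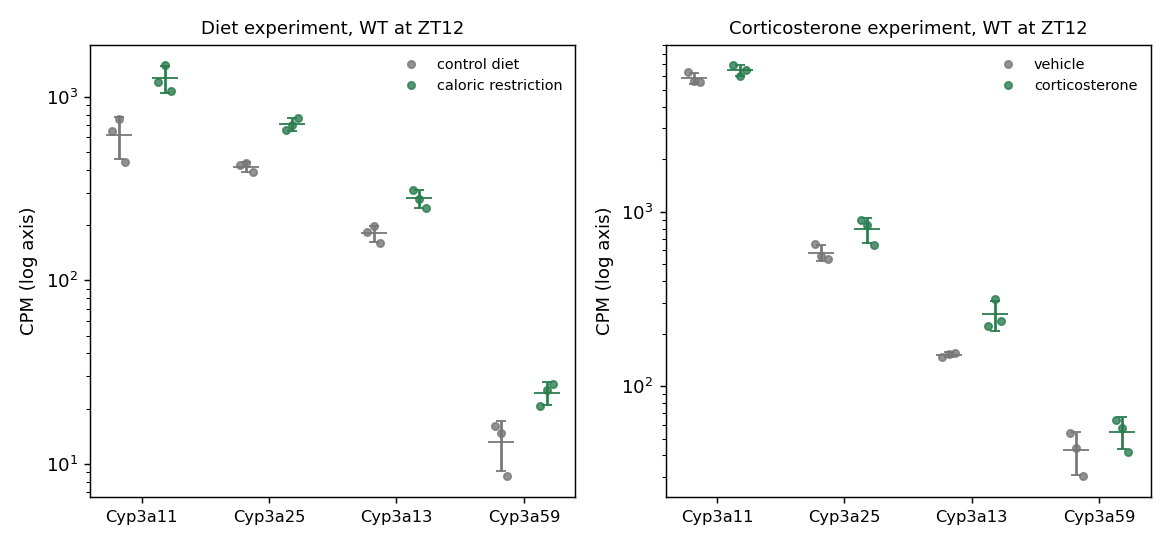
CPM of *Cyp3a11*, *Cyp3a25*, *Cyp3a13* and *Cyp3a59* (log axis) in WT livers at ZT12 in the diet experiment and in the corticosterone experiment, each point a library and the bars the mean and SD of 3 libraries. The calorie-restricted livers lie above the control-fed livers for all 4 genes, and after corticosterone the groups are separate for *Cyp3a13*, at 146.3 to 155 CPM in controls and 221 to 316 CPM in treated livers.

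The corticosterone experiment asked what added hormone does at the same time of day without a change of diet. *Cyp3a13* rose by 1.70-fold, while the most abundant member, *Cyp3a11*, was not called. The control livers held 146.3, 153 and 155 CPM of *Cyp3a13* and the corticosterone-treated livers 221, 316 and 236 CPM. Control values were tightly grouped and all treated livers lay above them, a separation found for 32.9% of all genes. The log2 fold change of *Cyp3a13* was 0.77 (SE 0.144, edgeR BH-adjusted p = 0.0227). When control replicate 1, 2 or 3 or treated replicate 3 was left out, the edgeR BH-adjusted p lay between 0.0507 and 0.0955. The log2 fold change then lay between 0.74 and 0.83, so that the call, but not the size of the difference, rests on these libraries. *Cyp3a13* was the only one of 4 tested members called, where 8.11% of all 11523 genes were called.

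*Cyp3a25* was at 652, 556 and 538 CPM in control livers and at 898, 834 and 642 CPM after corticosterone. The groups overlapped, because treated replicate 3 lay below control replicate 1. Its log2 fold change was 0.44 (SE 0.149, edgeR BH-adjusted p = 0.114), and DESeq2 gave 0.45 with a BH-adjusted p of 0.04. *Cyp3a11* stood at 6313, 5606 and 5563 CPM in control livers and 6901, 6012 and 6503 CPM in treated livers, with overlap and a log2 fold change of 0.15 (SE 0.108, edgeR BH-adjusted p = 0.427). *Cyp3a59* was at 53.8, 44.2 and 30.3 CPM and 64.2, 57.9 and 42.1 CPM, also with overlap, and had a log2 fold change of 0.35 (SE 0.233, edgeR BH-adjusted p = 0.387). *Cyp3a44* was not tested, with 0, 1.00 and 2.39 counts in controls and 2.01, 1.00 and 1.00 counts after corticosterone, and neither *Cyp3a41a* (at most 4.04 counts) nor *Cyp3a16* (at most 1.00 counts) passed the filter. Hepatocyte markers summed to between 97890 and 107800 CPM in these 6 libraries. The difference between the response to diet and the response to corticosterone was not tested. Side by side, the log2 fold changes under the diet and under corticosterone were 0.63 and 0.77 for *Cyp3a13*, 0.76 and 0.44 for *Cyp3a25*, 1.03 and 0.15 for *Cyp3a11*, and 0.89 and 0.35 for *Cyp3a59*.

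The time series asked what the loss of GR in hepatocytes does to each diet's livers over the day. On control diet, with all time points in the fit, *Cyp3a25* fell in GR LKO livers, and at ZT0 *Cyp3a59* fell as well. On caloric restriction it was the low-count member *Cyp3a44* that fell in GR LKO livers. *Cyp3a11* and *Cyp3a13* were called between the genotypes on neither diet and at no time point. On control diet at ZT0, 1 of the 4 members tested was called, *Cyp3a59*, where 0.536% of 11749 genes were called, and DESeq2 called 3 members there, *Cyp3a11*, *Cyp3a25* and *Cyp3a59*. With edgeR's quasi-likelihood test 0 of 4 members were called at ZT4 (0.195% of all genes), ZT8 (1.43%), ZT12 (2.08%) and ZT20 (0.420%), where 0 members passed an unadjusted p below 0.05 and DESeq2 also called 0. At ZT16, where 1.98% of all genes were called, edgeR called 0 of 4 members, *Cyp3a25* had an unadjusted p of 0.0146, and DESeq2 called that gene alone.

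On caloric restriction edgeR called 0 of the 5 members tested at each time point, and DESeq2 also called 0. The shares of all genes called were 0.502% at ZT0, 0.690% at ZT4, 2.55% at ZT8, 15.3% at ZT12, 4.54% at ZT16 and 1.47% at ZT20, so that ZT12, with 1795 genes called, was the time point of the widest genotype effect. At an unadjusted p below 0.05 there were 0 members at ZT0, ZT8 and ZT12, *Cyp3a11* and *Cyp3a44* at ZT4, and *Cyp3a44* at ZT16 and ZT20. Over all time points, with time as a term of the fit, 1 of the 6 members tested on caloric restriction was called, *Cyp3a44* (30.0% of 13041 genes called), and 1 of the 5 tested on control diet, *Cyp3a25* (17.6% of 12834 genes called). Either share of members rests on a single gene.

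*Cyp3a25*, a steroid hydroxylase, is known from liver and was followed over the day in each genotype. At ZT0 it stood at 737, 692 and 565 CPM in control-fed WT livers and at 522, 351 and 417 CPM in GR LKO livers. Its ZT4 values were 537, 883 and 843 CPM in WT against 661, 606 and 611 CPM in GR LKO. At ZT8 *Cyp3a25* reached 1008, 855, 1047 and 805 CPM in WT against 1128, 991, 699 and 682 CPM in GR LKO livers. Groups were apart at ZT0 only, where the same was found for 22.4% of all genes, and ZT8 held the highest group means of both genotypes. In the evening at ZT12 the WT livers had 805, 1119.6, 734 and 539 CPM of *Cyp3a25* and the GR LKO livers 675, 787, 810.4 and 485 CPM. At ZT16, in the dark phase, they had 794, 698, 505 and 736 CPM in WT against 504, 529 and 477 CPM in GR LKO. The ZT20 livers had the lowest means, with 525, 432, 324 and 489.8 CPM in WT against 389, 365 and 331 CPM in GR LKO. WT means were above GR LKO means at all 6 time points, although single livers overlapped at 5 of them.

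Averaged over the day on control diet, *Cyp3a25* stood at 712 ± 207 CPM (SD, 22 livers) in WT and reached 601 ± 212 CPM (SD, 20 livers) in GR LKO. It fell by a log2 fold change of -0.31 (SE 0.0849, edgeR BH-adjusted p = 0.00853), and without the libraries numbered 2 or 3 the edgeR BH-adjusted p was 0.113 or 0.0547. At single time points its log2 fold changes were -0.64 at ZT0, -0.27 at ZT4, -0.08 at ZT8, -0.21 at ZT12, -0.44 at ZT16 and -0.29 at ZT20, none called by edgeR. At ZT16 the edgeR BH-adjusted p of *Cyp3a25* was 0.173, and it was 0.0235 without WT replicate 3. On caloric restriction the log2 fold change over all time points was -0.11 (SE 0.081, edgeR BH-adjusted p = 0.344), and the difference between the diets was not called (interaction 0.20 (SE 0.121, edgeR BH-adjusted p = 0.464)). Without the ZT8 library that stood apart, these values of *Cyp3a25* were -0.15 and 0.16, and its ZT8 value on caloric restriction was 0.03 in place of 0.22.

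On caloric restriction *Cyp3a25* was at 1016, 1056 and 1038 CPM in WT against 669.6, 893 and 1032 CPM in GR LKO livers at ZT0. The group means peaked at ZT4, with 1569.9, 1973 and 1526 CPM in WT against 1302, 1552 and 1596 CPM in GR LKO. At ZT8 the WT livers, including the library that stood apart, held 1554, 909.9 and 1359.7 CPM, while the GR LKO livers held 1551, 1370.4 and 1522 CPM. From ZT0 to ZT8 the genotypes overlapped at every time point. The ZT12 values of *Cyp3a25* were 1454, 1214 and 1426 CPM in WT against 1202, 1314 and 1134 CPM in GR LKO. At ZT16 they were 1016, 905 and 798 CPM in WT against 872, 682 and 1016 CPM in GR LKO, and at ZT20 720, 1032 and 800.5 CPM in WT against 724, 1014 and 517 CPM in GR LKO. These groups overlapped too, and the means at ZT16 and ZT20 were below those at ZT4, ZT8 and ZT12 in both genotypes.

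*Cyp3a59*, whose transcript shares much of its sequence with *Cyp3a25*, had its highest group means in the light phase as well. In control-fed livers at ZT0 it stood at 39.0, 35.6 and 36.3 CPM in WT against 16.7, 10.5 and 9.89 CPM in GR LKO. All GR LKO livers lay below all WT livers, as groups did not overlap for 22.4% of all genes at that time, and the log2 fold change was -1.59 (SE 0.192, edgeR BH-adjusted p = 0.0337). The edgeR BH-adjusted p of *Cyp3a59* at ZT0 was 0.114 when all groups of the diet were fitted together, and 0.0776 with a replicate block. It lay between 0.099 and 0.116 when WT replicate 1 or 2 or GR LKO replicate 2 or 3 was left out. Its log2 fold changes at the later time points were -0.61 at ZT4, -0.11 at ZT8, -0.25 at ZT12, -0.26 at ZT16 and -0.04 at ZT20, none called.

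The control-fed livers of the later time points spread widely in *Cyp3a59*. At ZT4 they held 12.6, 42.7 and 42.6 CPM in WT against 20.1, 18.003 and 26.3 CPM in GR LKO. The ZT8 livers had 59.6, 42.8, 75.01 and 29.8 CPM in WT against 76.1, 73.1, 19.0 and 23.4 CPM in GR LKO, overlapping over most of the range. At ZT12 the values were 37.4, 69.2, 27.3 and 14.1 CPM in WT against 15.1, 47.3, 42.5 and 19.9 CPM in GR LKO, and at ZT16 40.2, 19.7, 17.9 and 27.6 CPM in WT against 25.7, 19.5 and 21.0 CPM in GR LKO. The ZT20 livers stood at 10.1, 4.21, 9.92 and 27.7 CPM in WT against 13.6, 8.65 and 15.3 CPM in GR LKO, the lowest WT mean of the day. For *Cyp3a59* on control diet the log2 fold change over all time points was -0.42 (SE 0.216, edgeR BH-adjusted p = 0.19), on caloric restriction it was 0.08 (SE 0.18, edgeR BH-adjusted p = 0.798), and the interaction was 0.50 (SE 0.29, edgeR BH-adjusted p = 0.45). Without the ZT8 library that stood apart, the last 2 values were 0.00 and 0.42.

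On caloric restriction the median of *Cyp3a59* was 100.2 CPM in WT livers against 32.7 CPM on control diet, where diet and batch cannot be told apart. At ZT0 the WT livers held 78.8, 94.8 and 57.2 CPM, while the GR LKO livers held 27.4, 63.8 and 93.4 CPM of *Cyp3a59*. At ZT4 it stood at 200.4, 274 and 114 CPM in WT against 147, 164 and 204 CPM in GR LKO, and at ZT8 it stood at 154, 46.4 and 158 CPM in WT against 206, 156 and 174 CPM in GR LKO. Replicate 2 of the ZT8 WT group was again the lowest, and without it the ZT8 log2 fold change of *Cyp3a59* was 0.20 in place of 0.58, with edgeR BH-adjusted p of 0.499 and 0.516. At ZT12 *Cyp3a59* was at 96.1, 104 and 138 CPM in WT against 118, 159 and 168 CPM in GR LKO, with overlap. The dark-phase values were 144, 106 and 96.8 CPM in WT against 96.4, 71.8 and 185 CPM in GR LKO at ZT16 and 37.6, 88.9 and 63.0 CPM in WT against 48.4, 103 and 29.9 CPM in GR LKO at ZT20.

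*Cyp3a11*, the main drug-metabolizing member, spread widely between control-fed livers at several time points. At ZT0 the control-fed WT livers stood at 7067, 6208 and 7248 CPM and the GR LKO livers at 5583, 2358 and 3375 CPM. No GR LKO liver reached the lowest WT liver, a separation seen in 22.4% of all genes, and the log2 fold change was -0.87 (SE 0.291, edgeR BH-adjusted p = 0.235), while DESeq2 gave -0.87 with a BH-adjusted p of 0.0292. *Cyp3a11* at ZT4 was at 2476, 4780.2 and 5233 CPM in WT against 3225, 2909 and 4194 CPM in GR LKO. The ZT8 livers held 4593, 5520, 6062 and 4790 CPM in WT against 6399, 6937, 3602 and 3933 CPM in GR LKO. At ZT12 the WT values of 5594, 7941, 6967 and 2491 CPM and the GR LKO values of 3441, 6236, 4454 and 2404 CPM again overlapped. For ZT16 they were 5661, 5380.2, 3031 and 5661 CPM in WT against 5731, 3796 and 4193 CPM in GR LKO, and for ZT20 1702, 1969, 1187 and 2539 CPM in WT against 3339, 1666 and 2896 CPM in GR LKO. The lowest WT mean of the day was at ZT20, where the GR LKO mean was higher than that of WT. Over all time points on control diet the log2 fold change of *Cyp3a11* was -0.19 (SE 0.147, edgeR BH-adjusted p = 0.449).

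On caloric restriction *Cyp3a11* at ZT0 was at 3452, 5210.4 and 6498 CPM in WT against 3688, 4302 and 4802 CPM in GR LKO livers. At ZT4 the WT livers held 5759, 7666 and 6252 CPM and all GR LKO livers less (groups apart for 21.7% of all genes), with 4341, 5249.5 and 5696 CPM and an unadjusted p of 0.0474 for a log2 fold change of -0.35 (SE 0.149, edgeR BH-adjusted p = 0.335). At ZT8 WT livers were spread from 462 to 6140 CPM, and GR LKO livers held 5764, 6030 and 6977 CPM. The ZT8 log2 fold change of *Cyp3a11* was 0.88 with the library that stood apart and 0.36 without it, with edgeR BH-adjusted p of 0.588 and 0.5. At ZT12, the highest WT mean of the day, *Cyp3a11* was at 7261, 9223 and 7374 CPM in WT against 7484, 7432 and 8041 CPM in GR LKO, with a log2 fold change of -0.06 (SE 0.106, edgeR BH-adjusted p = 0.763). The ZT16 livers held 7138, 5197 and 6408 CPM in WT against 7016, 5759.8 and 9038 CPM in GR LKO, and the ZT20 livers 4989.6, 7359 and 5249 CPM in WT against 5718, 7117 and 5956 CPM in GR LKO, with overlap at both time points. With all calorie-restricted time points in the fit the log2 fold change of *Cyp3a11* was 0.09 (SE 0.173, edgeR BH-adjusted p = 0.755), or -0.01 without that library, and its interaction with diet was 0.28 (SE 0.23, edgeR BH-adjusted p = 0.644), or 0.17 without it.

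*Cyp3a13*, which differs most in sequence from the rest of the family, showed overlapping genotypes at every time point on both diets. On control diet its WT livers ranged over 112 to 208 CPM (median 142) and its GR LKO livers over 112 to 195 CPM (median 142). Group means on that diet moved from 119 ± 8.56 CPM at ZT4 to 179 ± 10.9 CPM at ZT16 in WT (SD, n = 3 and n = 4) and from 121 ± 9.10 to 176 ± 21.2 CPM in GR LKO (SD, n = 3 each). Single control-fed livers of *Cyp3a13* stood at 149.7, 137 and 140 CPM in WT against 158, 143 and 134 CPM in GR LKO at ZT0, and at 112, 128 and 116 CPM in WT against 119, 113 and 131 CPM in GR LKO at ZT4. At ZT8 they held 122, 114, 125 and 114 CPM in WT against 128, 135, 121 and 112 CPM in GR LKO, and at ZT12 178, 169.7, 143 and 137 CPM in WT against 145.1, 151, 162 and 141 CPM in GR LKO. For ZT16 the values were 187, 171, 169.6 and 191 CPM in WT against 153, 179.6 and 195 CPM in GR LKO, and for ZT20 162, 164, 207 and 132 CPM in WT against 119, 176 and 151 CPM in GR LKO. Group means were lowest at ZT4 and ZT8 and highest at ZT16, single livers of ZT20 spread over nearly the whole range, and the genotypes overlapped throughout.

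On caloric restriction at ZT12, where its means were highest, *Cyp3a13* stood at 317, 295 and 345 CPM in WT against 297, 301 and 262 CPM in GR LKO livers. At ZT0 on the same diet it was at 136, 182 and 169.9 CPM in WT against 144, 148 and 149 CPM in GR LKO livers, so that the ZT12 livers of each genotype lay above all their ZT0 livers while the genotypes overlapped at both times. At ZT4 *Cyp3a13* was at 148, 181 and 154 CPM in WT against 152, 161 and 187 CPM in GR LKO, and at ZT8 at 204, 299.9 and 174 CPM in WT against 192, 213 and 192 CPM in GR LKO. The ZT16 livers held 219.7, 270.1 and 219 CPM in WT against 295, 232 and 301 CPM in GR LKO, and the ZT20 livers 235, 227 and 181 CPM in WT against 153, 238 and 207 CPM in GR LKO. No time point separated the genotypes. Between genotypes, with all time points in the fit, the log2 fold change of *Cyp3a13* was -0.05 (SE 0.0669, edgeR BH-adjusted p = 0.64) on caloric restriction and -0.03 (SE 0.0455, edgeR BH-adjusted p = 0.791) on control diet, with an interaction of -0.02 (SE 0.0808, edgeR BH-adjusted p = 0.949). The log2 fold changes of *Cyp3a13* at single time points went from -0.18 to 0.24 on caloric restriction and from -0.16 to 0.06 under the control diet, and neither edgeR nor DESeq2 called any of them. The lowest of these, at ZT8 on caloric restriction, was 0.08 without the library that stood apart, and the value over all calorie-restricted time points and the interaction of *Cyp3a13* were then -0.01 and 0.01.

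**Figure D3:**
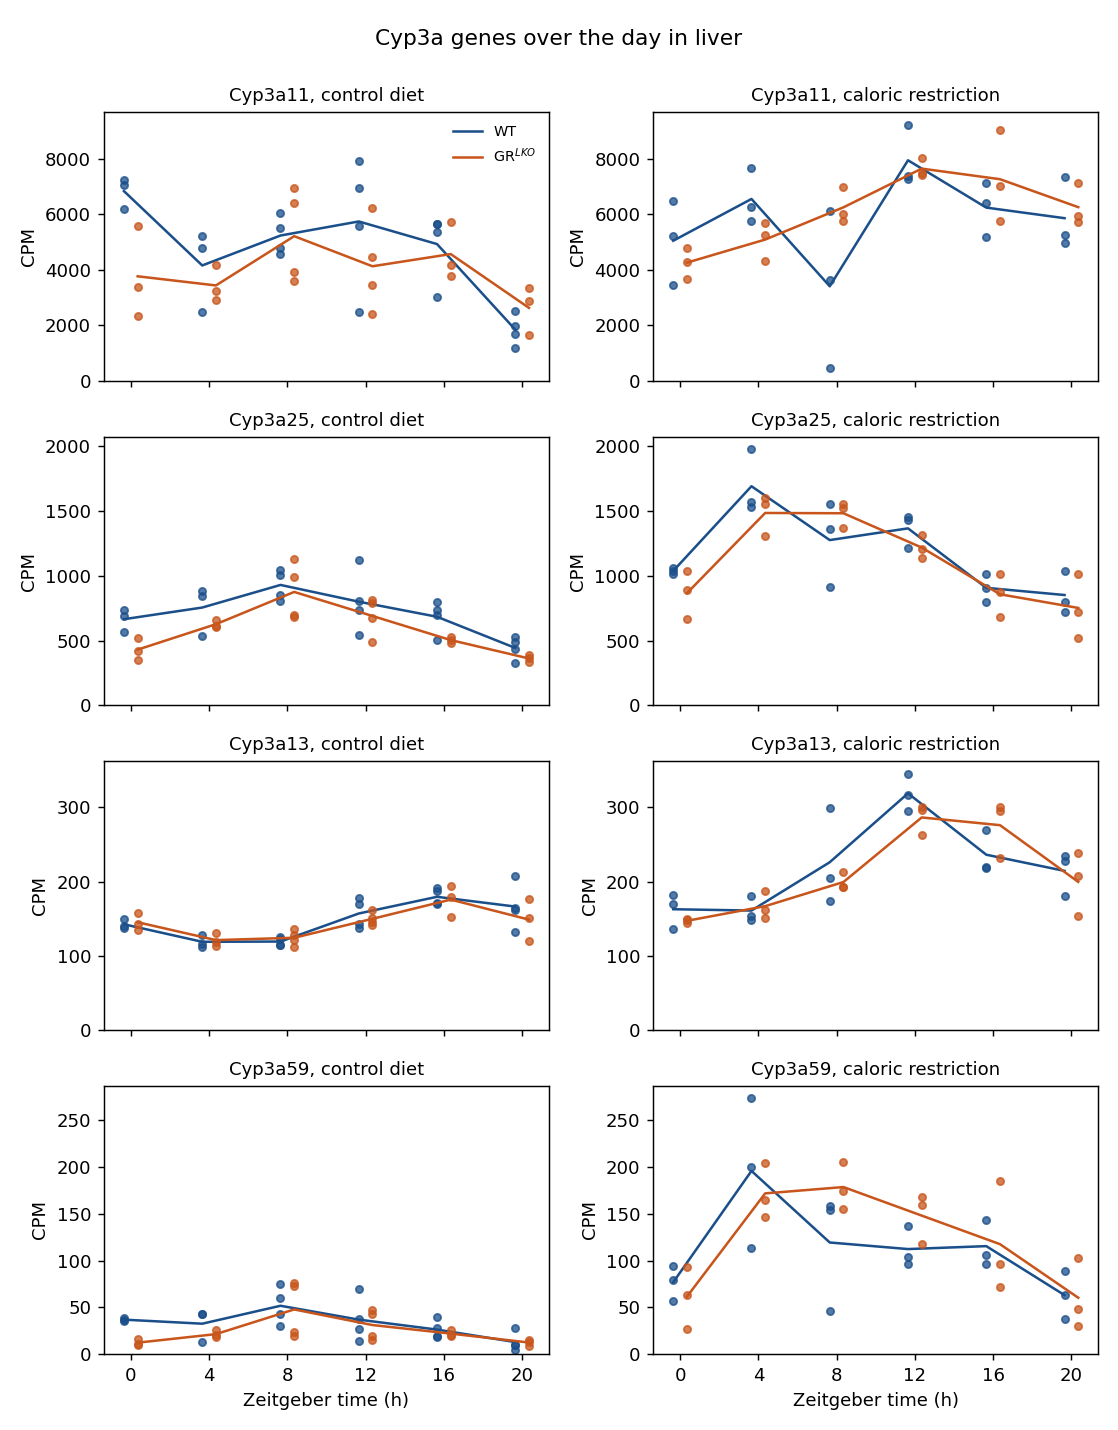
CPM of *Cyp3a11*, *Cyp3a25*, *Cyp3a13* and *Cyp3a59* against zeitgeber time (h) in control-fed and calorie-restricted livers, each point a library of WT (blue) or GR LKO (orange) and the lines joining group means. In calorie-restricted WT livers the means of *Cyp3a25* and *Cyp3a59* are highest at ZT4, at 1689.6 and 196 CPM, that of *Cyp3a13* at ZT12, at 319 CPM, and the ZT8 mean of *Cyp3a11* is pulled down by a library at 462 CPM.

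*Cyp3a44*, known for its higher level in female liver, was detected at low counts in these males. Calorie-restricted WT livers had 0.221 to 3.002 CPM (median 0.948, up to 55.9 counts) and GR LKO livers 0.217 to 1.06 CPM (median 0.531, up to 19.0 counts). At ZT4 its WT counts were 13.6, 17.5 and 21.8 and its GR LKO counts 9.12, 9.19 and 7.11. At ZT8 the WT livers had 22.0, 4.03 and 55.9 counts, which included the highest value of the table, and the GR LKO livers 13.99, 8.46 and 7.09. WT and GR LKO livers were apart in CPM at ZT4 and overlapped at ZT8. At ZT16 the WT livers held 28.5, 24.1 and 17.7 counts and the GR LKO livers 7.10, 14.7 and 10.8 counts of *Cyp3a44*. The ZT20 livers held 19.2, 21.7 and 14.8 counts in WT and 4.03, 6.36 and 4.73 in GR LKO. Every WT liver was above every GR LKO liver in CPM at these dark-phase times, while groups were apart for 25.2% of all genes at ZT16, 27.1% at ZT20 and 21.7% at ZT4. At ZT4 and ZT20 all GR LKO counts were under 10 and all WT counts above, so that *Cyp3a44* passed the filter there only through WT and had to differ, and these separations and fold changes are not read as results of their own. Counts at ZT12 were 11.7, 9.10 and 9.15 in WT and 12.1, 19.0 and 9.97 in GR LKO, and at ZT0 14.8, 5.04 and 13.6 and 9.17, 10.1 and 12.5, with overlap at both.

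Over all time points on caloric restriction *Cyp3a44* fell in GR LKO livers by a log2 fold change of -0.91 (SE 0.245, edgeR BH-adjusted p = 0.00477), from 1.045 to 0.550 CPM. Without the ZT8 WT library that stood apart the value was -0.97 (edgeR BH-adjusted p = 0.000908), and without all libraries numbered 1 or 3 the adjusted p was 0.11 or 0.105. Single time points gave log2 fold changes of -1.10 (adjusted p = 0.263) at ZT4, -1.56 (adjusted p = 0.373) at ZT8 (-2.07, adjusted p = 0.0965, without the library that stood apart), -1.11 (adjusted p = 0.169) at ZT16 and -1.88 (adjusted p = 0.0776) at ZT20 by edgeR with BH adjustment, none of them called. In a joint fit of all calorie-restricted groups the ZT20 value was -1.89 (edgeR BH-adjusted p = 0.0351). At ZT0 and ZT12 its log2 fold changes were -0.04 and 0.27. On control diet *Cyp3a44* was too low to be tested, with at most 7.99 counts in WT and 5.80 in GR LKO. The interaction of genotype and diet over all time points for *Cyp3a44* was -0.74 (SE 0.368, edgeR BH-adjusted p = 0.351), or -0.81 without that library.

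**Figure D4:**
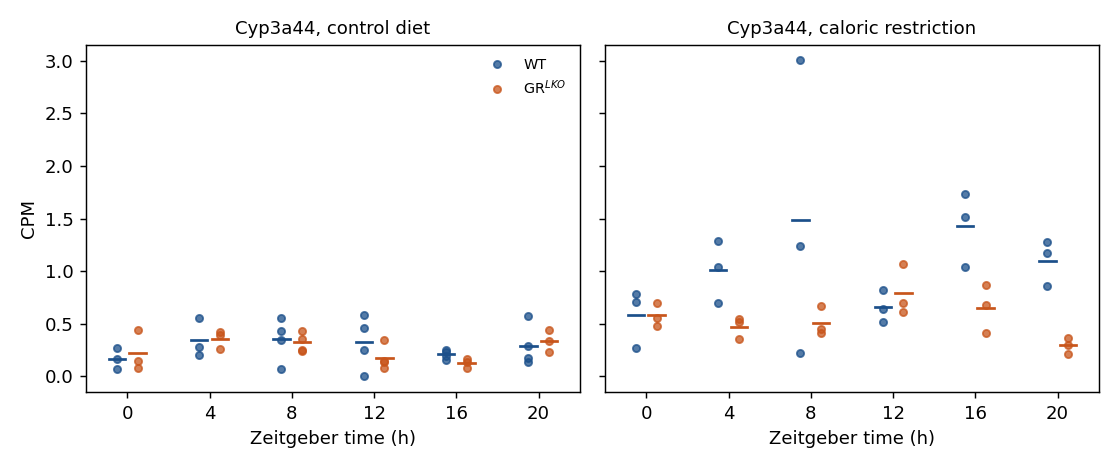
CPM of *Cyp3a44* against zeitgeber time (h) in control-fed and calorie-restricted livers, each point a library of WT (blue) or GR LKO (orange) and each bar a group mean. On caloric restriction the WT and GR LKO points are separate at ZT4, ZT16 and ZT20, and a WT library at ZT8 reaches 3.002 CPM.

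*Cyp3a41a* and *Cyp3a16* were close to the limit of detection. *Cyp3a41a* passed the filter in 3 of the 18 comparisons, those over all time points, and was called in none of them, with log2 fold changes of -0.52 (SE 0.519, edgeR BH-adjusted p = 0.495) on caloric restriction and -0.39 (SE 0.596, edgeR BH-adjusted p = 0.743) on control diet and an interaction of -0.14 (SE 0.787, edgeR BH-adjusted p = 0.967) (-0.63 on caloric restriction and -0.25 for the interaction without the ZT8 library). Its counts reached at most 16.9 in any library and were 0 in 8 of the 22 control-fed WT livers. Summed with its near-identical copy *Cyp3a41b*, group means on caloric restriction lay between 0.304 and 0.678 CPM, with the WT mean higher at ZT0 and ZT12 and the GR LKO mean higher at the other 4 time points. *Cyp3a16* passed the filter in 0 of the 18 comparisons, with at most 10.1 counts in any library, and *Cyp3a57* had at most 3.11. Of the remaining members, *Cyp3a11*, *Cyp3a13*, *Cyp3a25* and *Cyp3a59* were tested in all 18 comparisons and *Cyp3a44* in 10.

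Whether the genotype effect depended on the diet was tested as an interaction. At ZT12 edgeR called 0 of the 5 members tested, where 1.01% of 12225 genes were called, and 0 members passed an unadjusted p below 0.05 or were called by DESeq2. Over all time points edgeR and DESeq2 called 0 of the 6 members tested, where 1.70% of 13376 genes were called by edgeR, and *Cyp3a44* alone had an unadjusted p below 0.05 (0.0483). The ZT12 interactions on the log2 scale were 0.43 for *Cyp3a11*, -0.08 for *Cyp3a13*, 0.06 for *Cyp3a25*, 1.18 for *Cyp3a44* and 0.65 for *Cyp3a59*. A difference of *Cyp3a44* or *Cyp3a25* between the diets in its genotype effect is therefore not shown by these libraries.

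Levels over the day were tested for a 24 h rhythm with JTK_CYCLE, a rank test with an exact null distribution, in each genotype and diet. In calorie-restricted WT livers 1 member was called, *Cyp3a13*, where 21.7% of 18651 genes were called. In calorie-restricted GR LKO livers 4 members were called, *Cyp3a11*, *Cyp3a13*, *Cyp3a25* and *Cyp3a59*, beside 19.8% of all genes. On control diet *Cyp3a13*, *Cyp3a25* and *Cyp3a59* were called in WT, beside 27.3% of all genes, and the same 3 in GR LKO livers, beside 22.7%. By the phase that JTK_CYCLE assigns, *Cyp3a13* had its peak at ZT12 on caloric restriction and ZT16 on control diet in both genotypes, while *Cyp3a25* and *Cyp3a59* peaked at ZT8 wherever they were called and *Cyp3a11* at ZT12, although the highest group mean can lie at a neighbouring time point. A difference in rhythm between the genotypes or the diets was not tested. On caloric restriction none of the 4 calls in GR LKO livers, nor that of *Cyp3a13* in WT livers, was kept when all libraries of any 1 replicate number were left out, which leaves 2 libraries per time point and lowers the number of calls for all genes too. On control diet the calls kept whichever number was left out were those of *Cyp3a13* in WT and *Cyp3a25* in GR LKO livers.

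*Cyp3a13* moved between group means of 161 CPM at ZT4 and 319 CPM at ZT12 in calorie-restricted WT livers, with a BH-adjusted exact JTK_CYCLE p of 0.0162. The corresponding p was 0.00335 in calorie-restricted GR LKO, 0.000939 in control-fed WT and 0.0111 in control-fed GR LKO livers. *Cyp3a25* went from 443 CPM at ZT20 to 929 CPM at ZT8 in control-fed WT livers (BH-adjusted exact JTK_CYCLE p = 0.00301). In control-fed GR LKO livers it went from 362 to 875 CPM between the same times (BH-adjusted exact JTK_CYCLE p = 0.000431). Its p on caloric restriction was 0.00448 in GR LKO and 0.0551 in WT. For *Cyp3a59* the BH-adjusted exact JTK_CYCLE p was 0.0427 and 0.0496 in control-fed WT and GR LKO livers and 0.236 and 0.0374 in calorie-restricted WT and GR LKO livers. Without the ZT8 WT library that stood apart 3 members were called in calorie-restricted WT livers, *Cyp3a13*, *Cyp3a25* and *Cyp3a59*, with BH-adjusted exact JTK_CYCLE p of 0.0281, 0.00903 and 0.0281.

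*Cyp3a11* was called for a rhythm in calorie-restricted GR LKO livers, where its means went from 4264 CPM at ZT0 to 7653 CPM at ZT12 (BH-adjusted exact JTK_CYCLE p = 0.00448). In calorie-restricted WT livers its BH-adjusted exact JTK_CYCLE p was 1, or 0.926 without the library that stood apart. On control diet its WT means went from 6841 CPM at ZT0 to 1849 CPM at ZT20, with its highest and lowest means at neighbouring times of the cycle, and it was not called (BH-adjusted exact JTK_CYCLE p = 1). An edgeR F test over the 6 time points, which assumes no shape, gave *Cyp3a11* a BH-adjusted p of 0.00183 in those WT livers, where it called 6244 of 12481 genes, and 0.229 in control-fed GR LKO livers. *Cyp3a44*, *Cyp3a41a* and *Cyp3a16* were called for a rhythm in no genotype or diet.

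Correlations over the libraries of the time series are described without a test. *Cyp3a25* and *Cyp3a59* had a Pearson r of 0.852 over the 36 calorie-restricted and 0.857 over the 42 control-fed libraries, values that share depth and time of day within each table and, for these paralogs, part of the transcript sequence. *Cyp3a11* had r of 0.388 and 0.808 with *Cyp3a59* and of 0.194 and 0.746 with *Cyp3a25*, for caloric restriction and control diet in this order. Without the ZT8 library that stood apart, the 35 other calorie-restricted libraries gave 0.368 and 0.211. With *Cyp3a13*, *Cyp3a11* had r of 0.123 on caloric restriction, or 0.68 without that library, and -0.112 on control diet. Outside the family, among 12624 genes, the highest mean r with *Cyp3a11* was that of *Ces2a* (0.744), a carboxylesterase known as a PXR target, followed by *Cyp2c55* (0.558) and *Asah2* (0.511). These 3 rest on that library on caloric restriction, where r without it was 0.405 in place of 0.707 for *Ces2a*, 0.187 in place of 0.479 for *Cyp2c55* and 0.0527 in place of 0.838 for *Asah2*. *Cyp3a25* was most like *Slco1a4* (0.854), an organic anion transporter of the hepatocyte membrane, then *Pik3ap1* (0.79) and *Jade1* (0.776). The genes most like *Cyp3a59* were *Slco1a4* (0.791), *Gstm1* (0.687) and *Minpp1* (0.657). For *Cyp3a13* they were *Gde1* (0.789), *Mapk14* (0.782) and *Gda* (0.759). For the genes named beside *Cyp3a25*, *Cyp3a59* and *Cyp3a13*, r on caloric restriction without the library lay between 0.717 and 0.889. *Cyp3a41a*, with sparse counts, had mean r of at most 0.457 (*Mafk*, with *Pcbp3* at 0.446 and *Kansl2* at 0.438), too weak and too sparse to be read as a pattern.

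Genes known to act on the Cyp3a genes were followed in the same comparisons. Of 20 regulators of Cyp3a transcription, 19 were tested in the diet experiment, and 6 rose and 3 fell on caloric restriction, where 23.5% of all genes rose and 23.6% fell, with a median log2 fold change of 0.14 against -1.8e-06 for all genes. *Ppargc1a*, a coactivator of nuclear receptors, rose by 1.94 on the log2 scale, *Cebpb* by 0.71, *Foxo1* by 0.71 and *Hnf4a* by 0.69. After corticosterone 4 of 18 regulators rose and 2 fell, where 4.47% of all genes rose and 3.64% fell, with a median of 0.26 against -0.01 for all genes. There *Cebpb* rose by 2.04, *Foxo1* by 1.29 and *Hnf4a* by 0.84 on the log2 scale, and the log2 fold change of *Foxa2* was -1.22. In GR LKO livers over all time points 6 of 19 regulators fell on caloric restriction and 3 of 19 on control diet, *Nr3c1* itself among them, where 15.7% and 8.1% of all genes fell. Their medians were -0.07 against 0.000973 for all genes on caloric restriction and -0.05 against -0.00245 on control diet. On caloric restriction *Cebpb*, *Ppargc1a* and *Foxa3* had log2 fold changes of -0.53, -0.37 and -0.34 in GR LKO livers, and on control diet *Hnf4a* and *Foxo1* had -0.23 and -0.22.

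Electron donors and heme synthesis enzymes that serve P450 enzymes of the endoplasmic reticulum were followed in the same way. On caloric restriction in WT livers 1 of 13 rose and 7 fell, beside the 23.5% and 23.6% of all genes, with a median log2 fold change of -0.32 against -1.8e-06 for all genes. *Por*, the reductase, rose by 1.16 on the log2 scale, while *Alas1*, which starts heme synthesis, had a log2 fold change of -1.29, *Ppox* -0.90 and *Alad* -0.83. After corticosterone *Alas1* rose by 1.93 and *Por* by 1.38 on the log2 scale, the 2 of 13 called beside 8.11% of all genes, with a median of -0.19 against -0.01 for all genes. In GR LKO livers over all time points 4 of 13 rose and 2 fell on caloric restriction (median 0.11) and 4 rose on control diet (median 0.05), beside 30.0% and 17.6% of all genes called. *Por* had a log2 fold change of -0.45 on caloric restriction, beside *Cyb5r3* at 0.34, *Alad* at 0.29 and *Cpox* at -0.17, and on control diet the called genes were *Cyb5r3*, *Alad*, *Cyb5b* and *Pgrmc1*, at 0.31, 0.18, 0.17 and 0.11.

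Other known targets of PXR and CAR gave a reference for the Cyp3a genes. In the diet experiment 9 of 17 rose and 4 fell, beside 23.5% and 23.6% of all genes, with a median log2 fold change of 0.74 against -1.8e-06 for all genes, among them *Slco1a4* (2.31) and *Cyp2c37* (1.88). *Cyp2b10* (0.0254 against 2.97 CPM) and *Akr1b7* (0.129 against 3.10 CPM), 2 of the 9, passed the filter only through the calorie-restricted group and had to differ. Corticosterone changed 1 of 16, where 8.11% of all genes were called, and this gene, *Cyp2b10*, rose by 3.18 on the log2 scale, with a median of -0.10 against -0.01 for all genes. In GR LKO livers over all time points 10 of 17 rose and 3 fell on caloric restriction, where 14.3% of all genes rose and 15.7% fell (median 0.30), led by *Cyp2b10* (2.71), *Gsta1* (2.48), *Akr1b7* (-1.67) and *Cyp2c55* (1.55). On control diet 7 of 16 rose and 2 fell, where 9.5% of all genes rose and 8.1% fell (median 0.15), led by *Cyp2b10* (2.95), *Gsta1* (1.61), *Cyp2c55* (0.76) and *Gstm3* (-0.53). *Cyp3a11*, a target of the same receptors, had log2 fold changes of 0.09 and -0.19 in these comparisons and was called in neither.

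*Cyp3a44* and *Cyp3a41a* belong to the female-predominant transcripts, and other genes of that kind were read beside them. In the diet experiment 12 of 16 female-predominant genes were tested and all were called higher (median log2 fold change 5.34), where 23.5% of all genes rose. Genes such as *Cyp2b13* (0.00835 against 3.68 CPM) and *Cyp2a4* (0.174 against 23.1 CPM) passed the filter only through the calorie-restricted group and had to differ, so the count and the median are not read as a result. The highest control means of the tested genes were those of *Fmo2*, *Cyp17a1*, *Prlr* and *Abcd2*, between 16.95 and 44.69 CPM. Their log2 fold changes were 3.235, 2.66, 1.82 and 0.76. All 12 male-predominant genes fell there, beside 23.6% of all genes (median -4.24), with the largest log2 fold changes in *Cyp4a12a* (-7.92), *Hsd3b5* (-7.23), *Cyp4a12b* (-7.11) and *Serpina1e* (-6.85). Of 10 genes of growth hormone signalling and sex-bias control, 1 rose and 6 fell, beside 23.5% and 23.6% of all genes (median -0.75), among them *Onecut1* (-2.70), *Bcl6* (-1.26), *Cish* (-1.22) and *Igfals* (-1.19). Of the 6 female-predominant genes tested after corticosterone (median -0.10), the lowest edgeR BH-adjusted p was that of *Cyp2c40*, 0.143 at a log2 fold change of -3.65. Its control livers spread widely, at 7.58 ± 11.1 CPM against 0.60 ± 0.52 CPM after corticosterone (SD, n = 3 each). In the same comparison 1 of 12 male-predominant genes, *Nat8*, fell (-1.13; median -0.29), and 1 of 10 growth hormone genes, *Stat5a*, fell (-0.66; median -0.17), beside 3.64% of all genes.

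In GR LKO livers over all time points 8 of 15 female-predominant genes rose and 1 fell on caloric restriction, beside 14.3% and 15.7% of all genes (median log2 fold change 0.73), led by *Cyp2b13* (5.75), *Hao2* (5.50), *Cyp2a4* (3.84) and *Sult2a2* (3.71). Genes of this list that are low in WT livers carry the same limit of the filter. *Hao2* (0.184 CPM in WT against 9.10 CPM in GR LKO) and *Sult2a2* (0.0452 against 0.83 CPM) passed it on caloric restriction only through GR LKO livers and had to differ. The counts and medians of this list in GR LKO livers, on either diet, are therefore not read as a result. *Cyp3a44* had a log2 fold change of -0.91 in the comparison on caloric restriction. On control diet 9 of 12 rose and 1 fell, beside 9.5% and 8.1% of all genes (median 2.03), led by *Cyp2b9* (6.47), *Cyp2a4* (5.98), *Cyp2b13* (5.23) and *Hao2* (3.29). Of 12 male-predominant genes, against the same shares of all genes, 2 rose and 6 fell on caloric restriction (median -0.46), with *Hsd3b5* at -2.97, *Serpina1e* at -2.14, *Slco1a1* at -2.10 and *Mup20* at -1.49, and 2 rose and 7 fell on control diet (median -0.36), with *Mup20* at -1.43, *Serpina1e* at -1.10, *Cyp7b1* at -0.92 and *Cyp4a12a* at 0.67. Of 10 growth hormone genes, 2 were called on caloric restriction, *Ghr* (0.39) and *Stat5a* (0.23; median 0.04), and 1 on control diet, *Ghr* (0.13; median 0.09), beside 30.0% and 17.6% of all genes.

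The promoters of members that moved together or apart are shown so that their sequences can be compared. Each runs from 250 bases before to 50 bases after the start of the gene as given by RefSeq on build GRCm38.p6, all 7 members were matched by symbol, and capitals mark the motifs found. Motifs were searched on both strands over 32851 promoters of the same length: AGAACA or TGTTCT, part of a glucocorticoid receptor site (19.0% of all promoters), TTCNNNGAA, a STAT site (8.3%), AGTTCA or TGAACT, part of the site of PXR with RXR (14%), and TGTTTAC or GTAAACA, a forkhead site (3.65%). The promoter of *Cyp3a11* (minus strand, chr5:145879805-145880104) holds TGTTTAC at -198 to -192, TGAACT at -142 to -137 and AGAACA at 40 to 45 from the start. *Cyp3a25* (minus strand, chr5:146009569-146009868) and *Cyp3a59* (plus strand, chr5:146079008-146079307), whose levels moved together, hold AGAACA at nearly the same place, at -206 to -201 and -207 to -202. *Cyp3a44* (minus strand, chr5:145805825-145806124) holds TGTTTAC at -186 to -180, and *Cyp3a13* (minus strand, chr5:137921570-137921869), called after corticosterone, holds none of the 4 motifs.
Cyp3a11: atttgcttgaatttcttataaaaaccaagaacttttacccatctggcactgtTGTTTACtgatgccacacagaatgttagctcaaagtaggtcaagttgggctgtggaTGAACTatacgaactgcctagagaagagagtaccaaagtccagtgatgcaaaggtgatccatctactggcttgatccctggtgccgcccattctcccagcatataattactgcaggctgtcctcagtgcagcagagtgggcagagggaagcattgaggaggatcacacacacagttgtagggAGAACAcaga
Cyp3a25: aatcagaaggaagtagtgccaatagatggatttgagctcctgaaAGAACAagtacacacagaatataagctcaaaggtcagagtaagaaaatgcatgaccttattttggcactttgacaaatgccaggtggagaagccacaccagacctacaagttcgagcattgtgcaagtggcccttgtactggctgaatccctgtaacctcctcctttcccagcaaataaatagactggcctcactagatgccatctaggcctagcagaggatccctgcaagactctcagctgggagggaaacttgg
Cyp3a59: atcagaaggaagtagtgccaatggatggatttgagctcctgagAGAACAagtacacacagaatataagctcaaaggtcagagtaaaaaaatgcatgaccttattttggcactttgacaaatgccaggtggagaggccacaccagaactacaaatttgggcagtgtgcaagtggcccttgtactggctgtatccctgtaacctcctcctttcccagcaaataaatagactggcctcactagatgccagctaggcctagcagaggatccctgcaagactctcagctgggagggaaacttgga
Cyp3a44: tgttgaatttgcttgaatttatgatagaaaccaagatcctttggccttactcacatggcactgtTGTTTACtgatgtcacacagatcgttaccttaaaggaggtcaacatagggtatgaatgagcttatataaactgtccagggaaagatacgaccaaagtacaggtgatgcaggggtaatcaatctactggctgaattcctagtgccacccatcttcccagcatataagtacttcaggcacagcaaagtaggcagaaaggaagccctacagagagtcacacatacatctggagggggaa
Cyp3a13: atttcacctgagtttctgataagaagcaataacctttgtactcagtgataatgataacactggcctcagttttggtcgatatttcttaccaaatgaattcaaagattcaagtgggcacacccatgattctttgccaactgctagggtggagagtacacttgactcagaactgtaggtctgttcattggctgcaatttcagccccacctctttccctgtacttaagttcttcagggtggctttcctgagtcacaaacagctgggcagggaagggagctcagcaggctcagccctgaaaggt
Of the 7 members, 4 hold AGAACA on either strand, 0 TTCNNNGAA, 2 AGTTCA and 4 TGTTTAC. The letters around TGTTTAC are alike in the 4 promoters that hold it, as are those around AGAACA in *Cyp3a25* and *Cyp3a59*. These members are therefore not independent, and the counts are not read against the shares of all promoters. A match is a description of these letters in this window, and binding at them was not analysed here.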

How the data were processed

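Counts were analysed as deposited. They are estimated counts that the authors made with Salmon from whole-liver reads, and the processing notes of the submitters also name FastQC, MultiQC and DESeq2, without versions. The labels give build mm10, and the transcript annotation is not given in the sources used here. The authors' table of variance-stabilized values was not used. Of 27654 gene ids, 27244 matched a symbol, and ids without one held 0.107% of counts. For tests, counts were rounded, filtered with filterByExpr (minimum count 10) and TMM-scaled over the libraries of each comparison. They were tested with edgeR's quasi-likelihood F test, BH-adjusted over all tested genes. Levels in CPM were TMM-scaled per table, and a prior count of 2 was used for log2 CPM, not in the tests. R 4.3.3, edgeR 4.0.16, limma 3.58.1 and DESeq2 1.42.0 were used. JTK_CYCLE was written anew, with an exact null, for a period of 24 h. Members and gene lists were chosen with earlier results of these data known. Named are all 7 members, the other Cyp3a symbols, *Nr3c1*, up to 4 genes per list and comparison from among the called genes with the largest absolute log2 fold changes, 3 female-predominant genes given to show the limit of the filter or the lowest p, and the 3 genes outside the family with the highest mean Pearson r. Also named are the 4 tested female-predominant genes with the highest control means in the diet experiment. Grouping of members by protein identity was not run, and shared 31-base words replaced it.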

Additional observations from a re-analysis of the deposited data

Results flagged for a closer look

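*Cyp3a11* stood at 3030.6 CPM in replicate 3 of the control-fed WT livers at ZT16, against 5660.6, 5380.2 and 5661.3 CPM in the other 3 libraries, by Dixon's 95% rule for single values, run on 48 sets of 4 values (6 groups of 4 libraries, 8 genes). Chance marks about 1 in 20 groups, and 1 of these 48 was marked, no more than chance gives. Without this library the log2 fold change of *Cyp3a25* at ZT16 was -0.56 (edgeR BH-adjusted p = 0.0235). The library was kept in all other results.

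The ratio of GR LKO to WT mean CPM of *Cyp3a16* on caloric restriction was 0.462 at ZT12 and 3.85 at ZT16. *Cyp3a16* held at most 10.1 counts in any library of the time series, so that a few reads move this ratio, and the difference was not tested.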

How the results depend on the processing

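Alternatives were run for 22 results, and the number of members called moved in 11. Of 940 member values in the 18 comparisons, which leave out the rhythms, 918 kept their call, 16 lost it, 6 gained one and 0 had a call reversed in direction. Values that were not called could change sign. That of *Cyp3a13* at ZT8 on caloric restriction was -0.18, and 0.08 without replicate 2 of the WT livers. The diet effect, counted with *Cyp3a44* (5 members), called 3 members in the time-series livers at ZT12. Genotype at ZT20 on caloric restriction called 1 in a joint fit of all groups. Control diet at ZT0 called 3 with DESeq2 and 0 in a joint fit, and control diet at ZT16 called 1 with DESeq2. Corticosterone called 2 with DESeq2. The rhythm of calorie-restricted WT livers called 3 by an edgeR F test over time (8123 of 12624 genes), 2 by JTK_CYCLE after the filter on low counts (4678 of 12624), and 3 without replicate 2 of ZT8, an alternative chosen after the data were seen. Leaving out libraries gave 4 to 5 members for diet, 0 to 1 for control diet at ZT0 and at ZT16, for either genotype effect over all time points and for corticosterone, 0 to 3, 0 to 0, 1 to 3 and 1 to 2 for rhythm in calorie-restricted WT, calorie-restricted GR LKO, control-fed WT and control-fed GR LKO livers, and 0 to 0 for all others. The same replicate numbers do not pair livers: correlations of matched libraries ran from -0.123 to 0.115, and with a replicate block the control-diet ZT0 count was 0 (*Cyp3a59* -1.62, edgeR BH-adjusted p = 0.0776) and no other count changed. Low counts, near-identical copies and 3 or 4 libraries per group limit all of these.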
